A study of Mus musculus with 8 samples.

Results

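The ISG15 system is represented here by Isg15, the ubiquitin-like modifier, and by 4 genes whose products attach it to proteins or remove it: Uba7 (activating enzyme), Ube2l6 (conjugating enzyme), Herc6 (ligase) and Usp18 (deconjugating protease). Members were taken as the non-control probes whose gene name in the scanner files was one of these symbols. That gave 5 genes of 22509 tested and 6 probes of 56605 on the array, with Ube2l6 represented by 2 probes. All 6 probes were well above background on all 8 arrays, so no member was lost to the filter on dim probes.

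The mice were C57BL/6N males aged 7 days, and their CD11b+ brain cells were taken by magnetic sorting. One group had received saline and the other lipopolysaccharide (LPS), the endotoxin of Gram-negative bacteria, each 24 h earlier. Age, sex, strain and sort were shared by both groups. The dose and route of LPS are not given in the sources used here. Each tube pooled the brains of 2 mice, 4 tubes received each treatment, and the RNA of each tube went to one 1-colour array. CD11b is carried by microglia and by other myeloid cells, so each sample is a mixture. In such bulk samples a change in the number of cells of a type and a change in RNA per cell cannot be told apart.

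As background, ISG15 is made in response to type I interferon. It is joined to lysines of target proteins by an enzyme cascade that parallels that of ubiquitin: UBA7 activates it, UBE2L6 carries it and a HERC ligase transfers it. In the mouse that ligase is HERC6. Free ISG15 can also be secreted and acts on lymphocytes through the integrin LFA-1. USP18 removes ISG15 from its targets and, apart from that activity, binds the type I interferon receptor with STAT2 and dampens its signalling. In microglia USP18 is known as a brake on interferon responses.

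RefSeq promoter sequences (assembly GRCm38.p6) were found for 4 of the 5 members: Isg15, Uba7, Ube2l6 and Herc6. They are shown for reference, and their part in the unequal increases of the members was not tested. Each line gives the 120 bases that end just before the annotated start, 5′ to 3′ on the strand of the gene. Both strands were searched for GAAA repeated after a gap of any 2 bases, the core of the interferon-stimulated response element, and for the shorter AAANNGAAA. Capitals mark the matches to either. The shorter form was chosen after the promoters had been read, and every match to the longer motif contains a match to it.
Isg15, chr4:156200819-156200938, minus strand: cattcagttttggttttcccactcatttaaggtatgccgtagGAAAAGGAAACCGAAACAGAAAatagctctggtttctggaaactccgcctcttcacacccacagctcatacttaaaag
Uba7, chr9:107975447-107975566, plus strand: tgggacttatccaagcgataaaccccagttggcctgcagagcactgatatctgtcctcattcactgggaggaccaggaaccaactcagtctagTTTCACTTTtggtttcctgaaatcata
Ube2l6, chr2:84798708-84798827, plus strand: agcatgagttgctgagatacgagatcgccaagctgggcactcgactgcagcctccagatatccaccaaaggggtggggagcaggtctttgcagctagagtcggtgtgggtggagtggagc
Herc6, chr6:57580872-57580991, plus strand: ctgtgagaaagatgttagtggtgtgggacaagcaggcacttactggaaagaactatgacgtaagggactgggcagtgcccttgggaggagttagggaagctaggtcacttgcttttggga

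In the 250 bases before its start, Isg15 held 3 overlapping matches to the longer motif, between 78 and 57 bases upstream. Of 32817 promoter windows of that length, 2.97% held at least 1 match and 4 windows (0.0122%) held 3 or more. Uba7 had 1 match, to the shorter motif only, between 27 and 19 bases upstream, and 9.37% of windows held that motif. Ube2l6 and Herc6 had no match to either form in the 250 bases. TTCNNNGAA, the core of the gamma-activated site, matched in none of the 4 windows and in 7.01% of all windows. A match describes letters in one window and shows no binding.

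The values below are log2 processed signal minus the 75th percentile of the array, so 0 is the level below which 75% of probes lie. Levels of different genes come from different probes and were not set against each other. Changes are LPS minus saline on that log2 scale ± standard error (n = 4 arrays per group), with p-values from limma adjusted over all genes tested and a threshold of 0.05. All 5 members rose past the test, where 49.3% of all genes tested were called in either direction and 27.8% were called higher. In all 5 every LPS array lay above every saline array, which was so for 25.8% of all genes, and the groups did not overlap in either direction in 44.7%. Isg15 and Usp18 rose by 9.30-fold and 5.80-fold, and Uba7, Ube2l6 and Herc6 by 1.63-fold to 1.93-fold.

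Isg15 encodes the modifier itself (chr4:156199424-156200818, GRCm38.p6). Its values on saline replicates 1 to 4 were 1.96, 2.36, 1.82 and 2.06, and on LPS replicates 1 to 4 they were 5.24, 5.38, 4.90 and 5.55. The lowest LPS array was thus far above the highest saline array, and the SD was 0.23 within saline and 0.28 within LPS. The change was 3.22 ± 0.16 (adjusted p = 6.59e-05), and 0.164% of genes had a larger increase. In background-subtracted scanner units, before any scaling, the signal was 655 to 867 after saline and 5340 to 7540 after LPS.

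Usp18 encodes the protease that reverses the modification (chr6:121245906-121270917). It read -0.78, -0.33, -0.66 and -0.59 on the saline replicates and 1.90, 2.07, 1.61 and 2.20 on the LPS replicates. The groups lay far apart, with every LPS array above 0 and every saline array below it. The change was 2.53 ± 0.15 (adjusted p = 8.90e-05), and 0.355% of genes had a larger increase.

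The 3 enzymes that attach ISG15 rose less. Uba7, the activating enzyme gene (chr9:107975567-107984056), read 3.60, 3.70, 3.40 and 3.54 on the saline replicates and 4.29, 4.40, 4.02 and 4.38 on the LPS replicates. No LPS array overlapped the saline arrays, and the nearest pair, LPS replicate 3 and saline replicate 2, were closer than in Isg15. The change was 0.71 ± 0.11 (adjusted p = 0.00162), or 0.44 and still past the test with quantile normalization.

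Ube2l6 encodes the conjugating enzyme (chr2:84798828-84810003). Its brighter probe read 0.67, 0.69, 0.61 and 0.61 on the saline replicates, the tightest group of any member (SD 0.04), and 1.41, 1.53, 1.13 and 1.56 on the LPS replicates. LPS replicate 3 was lowest of its group and still above all saline arrays. The change was 0.76 ± 0.10 (adjusted p = 0.00114). The second, dimmer probe gave 0.85 ± 0.15 (adjusted p = 0.00288 over all probes, of which 47.5% were called), with saline values of -2.53, -2.24, -2.69 and -2.56 and LPS values of -1.48, -1.52, -2.04 and -1.57. Both probes therefore went the same way without overlap of the groups.

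Herc6 encodes the ligase (chr6:57580992-57665136) and had a dim probe, with scanner signals of 30.6 to 36.0 after saline and 53.5 to 59.1 after LPS. On the scaled log2 values it read -2.46, -2.23, -2.63 and -2.54 after saline and -1.40, -1.49, -1.74 and -1.45 after LPS. The 2 groups did not overlap. The change was 0.95 ± 0.11 (adjusted p = 0.000847). With normexp background and an added offset of 50, which shrinks the changes of dim probes, it was 0.45 and kept its call. Without the offset, normexp gave 0.88.

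**Figure D1:**
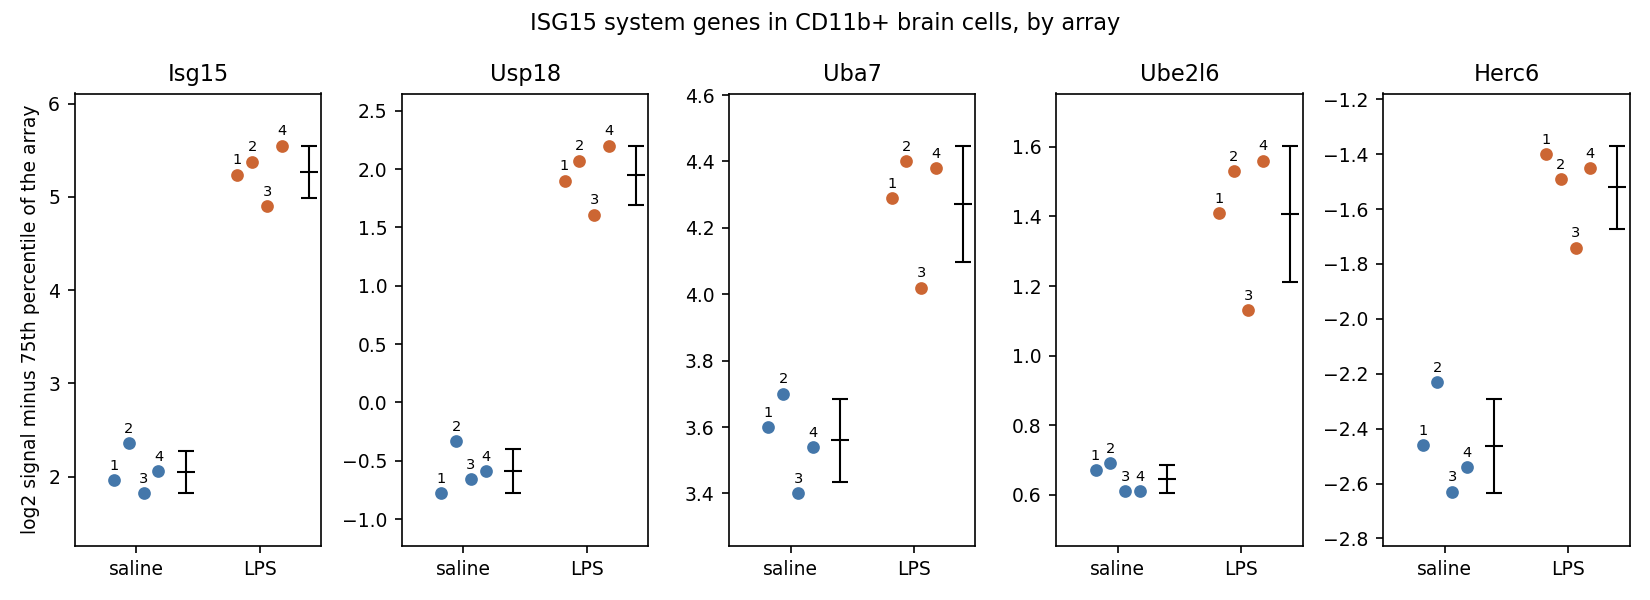
Log2 signal minus the 75th percentile of the array for the 5 genes on 4 saline (blue) and 4 LPS (orange) arrays. Numbers are replicates and the bar to the right of each group is the mean ± SD; each panel has its own axis. In every panel the LPS arrays lie above the saline arrays, by 3.22 on average in Isg15 and 0.71 in Uba7.

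Members were compared with each other through the difference of 2 genes within each array, tested with a two-sided exact permutation test over arrays, for which 0.0286 is the smallest p that 4 against 4 allows. There were 8 such comparisons, with Benjamini-Hochberg adjusted values over the 8, and intervals are 95% intervals from the same permutations. Usp18 rose less than Isg15, by -0.68 (-0.87 to -0.56, exact p = 0.0286, adjusted 0.0381), a 1.61-fold smaller increase. Isg15 and Usp18 have 1 probe each. The tests and intervals cover the spread over arrays and not differences in response between probes. Such differences can be large within 1 gene, as in Itgal, whose 2 probes changed by 1.87 and 0.29. On the single arrays Usp18 minus Isg15 was -2.74, -2.69, -2.48 and -2.64 after saline and -3.34, -3.30, -3.29 and -3.35 after LPS. The 4 LPS arrays thus gave nearly the same ratio, and all lay below the saline arrays.

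The attaching enzymes lagged Isg15 by more. The differences from the change of Isg15 were -2.51 (-2.81 to -2.22) for Uba7, -2.45 (-2.77 to -2.10) for Ube2l6 and -2.27 (-2.57 to -2.05) for Herc6, each with exact p = 0.0286 and adjusted 0.0381. In folds the increase of Isg15 was 5.69, 5.48 and 4.83 times that of the 3 enzymes.

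Relatives outside the ISG15 system gave the other 4 comparisons. Uba1 activates ubiquitin and rose by 0.57 ± 0.10. The change of Uba7 differed from it by 0.13 (-0.03 to 0.25, exact p = 0.0571, adjusted 0.0653), which missed the threshold. It passed with quantile normalization (0.23), with the mean of a gene's probes (0.19) and without LPS replicate 1 (0.17). Ube2l3, the ubiquitin-conjugating enzyme closest to Ube2l6, rose by 0.66 ± 0.13, and Ube2l6 minus Ube2l3 was 0.10 (-0.22 to 0.36, exact p = 0.343). The interval leaves room for a difference of up to 0.36 in favour of Ube2l6. That difference passed the threshold with quantile normalization (0.33) and with the mean of a gene's probes (0.59). The probes of Ube2l3 disagree: 2 gave 0.66 and 0.63, and another, dim one gave -0.64 ± 0.19. With its probes averaged the change of Ube2l3 was 0.22 and not past the test (adjusted p = 0.21).

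Herc3, another ligase gene of the HERC family, had a change of 0.06 ± 0.07 (adjusted p = 0.506). Its other probes gave larger changes of 0.12, 0.22, 0.23 and 0.28, none past the test. Herc6 minus Herc3 was 0.89 (0.31 to 1.20, exact p = 0.0286, adjusted 0.0381). It was 0.76 with the mean of a gene's probes and 0.39 with normexp background and the offset. Ubb, a polyubiquitin gene, had a change of -0.04 ± 0.08 (adjusted p = 0.721), and Isg15 minus Ubb was 3.25 (2.75 to 3.69, exact p = 0.0286, adjusted 0.0381). Herc3 turned to -0.10 when scaled to the 75th percentile of the probes that every array detected, and Ubb to 0.18 when scaled to the median of each array. Ubb passed the test as lower with the former scaling (-0.19), with quantile normalization (-0.24) and with the array's median signal as covariate.

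**Figure D2:**
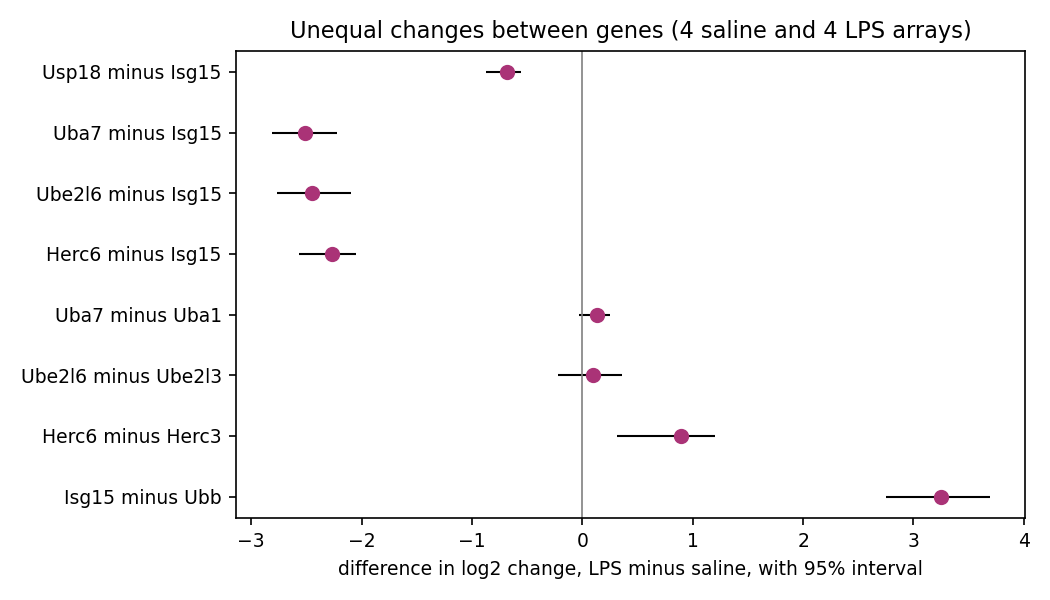
Difference between 2 genes in their log2 change, LPS minus saline (points), with the 95% interval of the exact permutation test (lines), over 4 saline and 4 LPS arrays. All 4 differences from Isg15 lie below 0, and the intervals of Uba7 minus Uba1 and Ube2l6 minus Ube2l3 include 0.

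Within the groups the 5 genes also moved together from array to array. Saline replicate 2 was the highest saline array and LPS replicate 3 the lowest LPS array in all 5 genes. This was not particular to the members: LPS replicate 3 was also the lowest LPS array for Uba1, Ube2l3 and Ubb, though not for Herc3. Over the whole array, LPS replicate 3 had correlations of 0.9864, 0.9773, 0.9846 and 0.9859 with saline replicates 1 to 4. With LPS replicates 1, 2 and 4 they were 0.9757, 0.9851 and 0.9845. The share of all genes with this order of arrays was not counted. The mean deviation of the 5 genes from their group mean was 0.20 on saline replicate 2, -0.13 on saline replicate 3, -0.29 on LPS replicate 3 and 0.17 on LPS replicate 4. The median processed signal of the whole array moved with this in the opposite sense: it was lowest among saline arrays on replicate 2 (19.3) and highest among LPS arrays on replicate 3 (21.3). Its part in these values was not tested. Without LPS replicate 3 the changes were 3.34 for Isg15, 2.65 for Usp18, 0.79 for Uba7, 0.86 for Ube2l6 and 1.02 for Herc6. With the array's median signal as covariate they were 2.96, 2.37, 0.51, 0.63 and 0.72, all past the test.

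**Figure D3:**
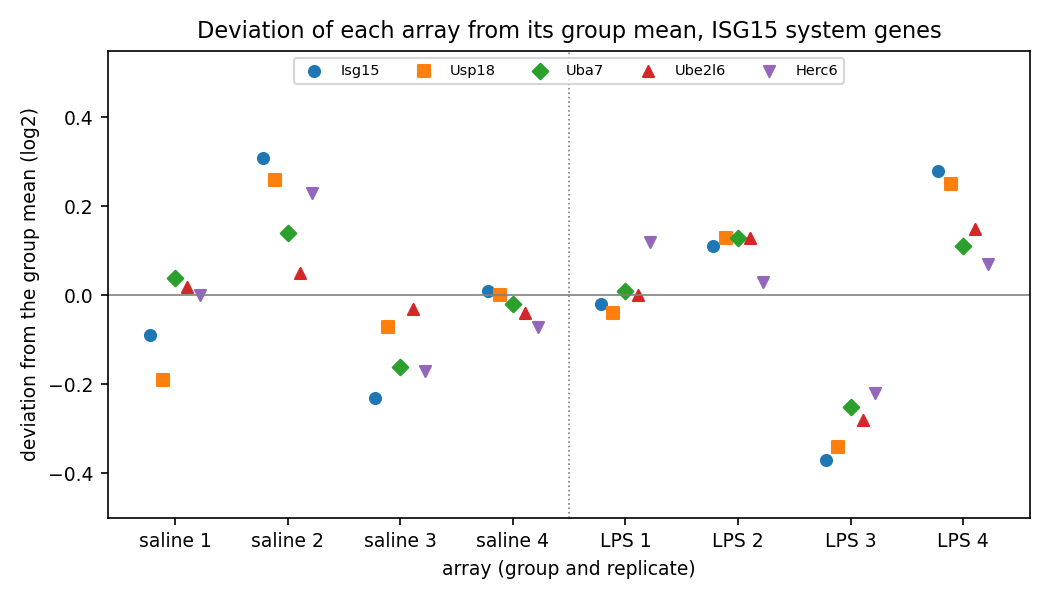
Deviation of each array from the mean of its own group (log2) for the 5 genes, with saline arrays left and LPS arrays right of the dotted line. All 5 genes lie below 0 on LPS replicate 3 (-0.37 to -0.22) and above 0 on saline replicate 2 (0.05 to 0.31).

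Genes most like the mean of the 5 members were sought by Pearson correlation over the 8 arrays, as a description. Members were centred but not scaled, so Isg15 and Usp18, with the largest changes, weigh most in that mean. The arrays share slide and scan, and the difference between treatments dominates the measure: 11.1% of genes with a symbol had a correlation above 0.95. The 5 highest were Rtp4 (0.9995), Phf11d (0.999), Phf11a (0.9988), Gm45935 (0.9985) and Dhx58 (0.9985). Dhx58 encodes LGP2, a cytosolic RNA sensor of the RIG-I family, and rose by 2.01 ± 0.17. Rtp4, an interferon-induced gene, rose by 2.07 ± 0.14. After subtracting the group means, 0.217% of genes were above 0.95, and the highest were Dhx58 (0.991), Myo1g (0.9854), Ncoa7 (0.9838), Rtp4 (0.9835) and Ell (0.981). Ell, an elongation factor gene, fell by 0.31 ± 0.07 with LPS, so it followed the members within the groups and opposed them between the groups.

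Probe sequences bear on what the Isg15 value holds. Its 60-base probe (chr4:155573649-155573708 in mm9, the build named in the file headers) begins at base 580 of its transcript. It shares an unbroken run of 35 bases with the probe for Gm9706, a pseudogene of Isg15 on chromosome 17 whose probe is placed at chr17:46543886-46543945 in mm9. No other probe on the array shares a run of 16 bases or more with it. The last 25 shared bases, in capitals, and the 4 that follow show where the probes part.
Isg15 probe: CCAGTGTTGGTTATAAAAGATGATGgggg
Gm9706 probe: CCAGTGTTGGTTATAAAAGATGATGcaat

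The Gm9706 probe read -2.13, -1.71, -2.07 and -1.96 on the saline replicates and 1.14, 1.23, 0.73 and 1.55 on the LPS replicates. Its change of 3.13 ± 0.18 was close to that of Isg15, and LPS replicate 3 was again the lowest of its group. Its scanner signal was 38.6 to 51.8 after saline and 297 to 473 after LPS. Given the shared run, transcripts of the gene and of the pseudogene cannot be told apart with certainty by either probe.

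The brighter Ube2l6 probe (chr2:84649861-84649920, mm9) shares 38 bases, on the opposite strand, with a probe that the design places at chr15:22634909-22634968 and that carries no gene symbol. That probe fell by 0.76 ± 0.17 (adjusted p = 0.00670 over all probes), from -1.61, -1.31, -0.96 and -1.17 after saline to -2.23, -2.11, -1.69 and -2.08 after LPS. It thus moved against Ube2l6, and its groups did not overlap. The dimmer Ube2l6 probe (chr2:84650257-84650316, mm9) does not hold that run and rose, as given above. It shares 16 bases with the probe of Olfr732, an olfactory receptor gene, which did not pass the filter on dim probes. The probes of Usp18 (chr6:121220874-121220933), Uba7 (chr9:107886328-107886387) and Herc6 (chr6:57568608-57568667, all mm9) shared no run of 16 bases with any other probe.

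**Figure D4:**
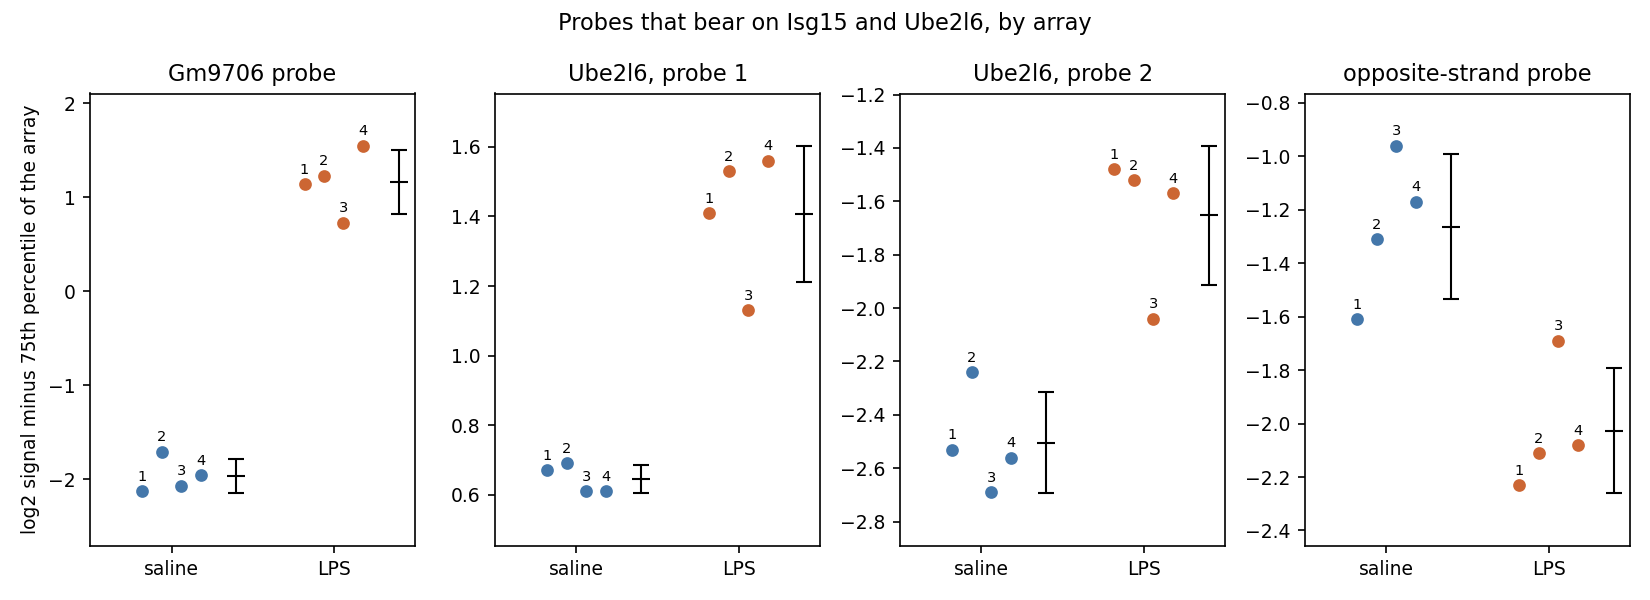
Log2 signal minus the 75th percentile of the array for the Gm9706 probe, the 2 Ube2l6 probes and the opposite-strand probe that shares 38 bases with Ube2l6 probe 1, on 4 saline (blue) and 4 LPS (orange) arrays. Numbers are replicates and bars are mean ± SD; the first 3 panels are higher after LPS (3.13, 0.76 and 0.85) and the last is lower (-0.76).

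Neighbouring genes on the chromosome did not share one direction with the members. The nearest measured protein-coding genes beside Isg15 were Agrn (-0.46 ± 0.19, adjusted p = 0.0732) and Plekhn1 (0.00 ± 0.08, adjusted p = 0.978). Beside Usp18, Tuba8 rose by 0.91 ± 0.22 and Slc6a13 fell by 0.99 ± 0.18. Uba7 lies 3.30 kb from Traip, a ubiquitin ligase gene that rose by 0.99 ± 0.12, and 0.167 kb from Inka1, which fell by 0.33 ± 0.12. Beside Ube2l6, Timm10 rose (0.57 ± 0.10) and Serping1 did not pass the test (-0.28 ± 0.23). Beside Herc6, Pyurf rose (0.45 ± 0.12) and the change of Ppm1k was 0.10 ± 0.09.

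The rest of the ISG15 pathway was described from lists of genes, against 27.8% called higher, 21.5% called lower and a median change of 0.02 over all genes tested. Stat2 and Irf9, whose products are part of ISGF3, the interferon-activated transcription factor, rose by 1.05 ± 0.14 and 0.81 ± 0.10. Among 8 genes for USP18 partners at the interferon receptor and for the ISG15 receptor, 5 rose and 0 fell, with a median of 0.37. Itgal (1.87 ± 0.16, and 1.08 when its probes were averaged) and Itgb2 (0.81 ± 0.11), whose products form the integrin LFA-1, were among them. The Itgal probes disagree in size: the other one gave 0.29 ± 0.10 (adjusted p = 0.036 over all probes). The receptor subunit gene Ifnar2 rose by 0.40 ± 0.08, whereas Ifnar1 had a change of -0.14 ± 0.07 (adjusted p = 0.122).

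A list of 6 genes held Trim25 and Arih1, ligase genes linked to ISG15, and 4 relatives of Herc6 in the HERC family. Trim25 and Arih1 rose and the relatives Herc1 and Herc2 fell, with a median over the 6 of 0.00 that was -0.08 with quantile normalization, where 0 rose and 3 fell, and 0.22 when scaled to the median of each array. Trim25 rose by 0.48 ± 0.12 (but missed the threshold with quantile normalization, at 0.11, and with the array's median signal as covariate, at 0.34). Arih1 rose by 0.24 ± 0.08 (adjusted p = 0.0379) but kept that call in 9 of 22 alternatives. Leaving out any 1 array other than LPS replicate 3 ended it (0.19 to 0.27, adjusted p up to 0.0995), as did quantile normalization (0.16), and the change turned to -0.06 when its probes were averaged. The giant HERC genes Herc2 (-0.71 ± 0.12, and -0.24 when its probes were averaged) and Herc1 (-0.36 ± 0.08, or -0.15 and not past the test when scaled to the median of each array) fell. The Herc2 probes disagree: those other than the brightest gave -0.24, -0.01 and 0.00, and the last 2 did not pass the test. Of 6 further proteases reported to act on ISG15, 2 rose and 1 fell, with a median of 0.08 that turned to -0.09 with quantile normalization. Usp14 rose by 0.67 ± 0.11 (0.14 and without a call when its probes were averaged) and Usp5 by 0.62 ± 0.11 (0.28 with quantile normalization and 0.40 with the array's median signal as covariate). The Usp14 probes other than the brightest gave -0.45, -0.29, 0.36 and 0.41. Usp13 fell by 0.98 ± 0.26, was well above background on 2 of 4 LPS arrays, and lost its call with normexp and the offset (-0.03) and with the array's median signal as covariate (-0.46).

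Of 16 genes of known ISG15 target proteins 10 rose and 1 fell, with a median of 0.57, or 10 and 4 with a median of 0.28 under quantile normalization. The list includes interferon-induced genes. Ifit1 (2.68 ± 0.22, or 1.40 with normexp background at the offset), Mx1 (2.31 ± 0.17) and Ifit3 (2.16 ± 0.22) had the largest increases of this list, and Plcg1, a phospholipase gene, fell by 0.62 ± 0.08 (-0.40 when scaled to the median of each array).

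Parallel conjugation systems were set beside the ISG15 system. Of 6 ubiquitin genes 5 rose and 0 fell (median 0.35), of 16 SUMO genes 7 rose and 0 fell (0.21), of 10 NEDD8 genes 7 rose and 0 fell (0.33) and of 8 UFM1 genes 5 rose and 0 fell (0.32). Among the largest increases in these lists, Sae1, of the SUMO-activating enzyme, rose by 0.79 ± 0.12, Cops5, of the complex that removes NEDD8, by 0.71 ± 0.11 and Ube2m, of NEDD8 conjugation, by 0.69 ± 0.10. The increases of Uba7 (0.71) and Ube2l6 (0.76) lie within this range and that of Herc6 (0.95) above it, but with normexp and the offset Herc6 (0.45) was below Sae1 (0.70). None of these differences was tested. Of 15 genes of ATG8 and ATG12 conjugation 3 rose and 2 fell (median 0.05), or 3 and 8 (median -0.21) with quantile normalization, with Map1lc3a down by 1.09 ± 0.12. Ubd, the gene of the modifier FAT10, was well above background on 1 of 8 arrays and did not pass the filter on dim probes. Without that filter it was called higher, with a fitted change of 2.72 that rests on readings not well above background on all but that array.

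These counts depended on the scaling and on single arrays. Scaled to the 75th percentile of the probes that every array detected, 3 genes were higher and 1 lower for ubiquitin, 6 and 4 for SUMO, 5 and 0 for NEDD8 and 3 and 0 for UFM1. Without LPS replicate 1, LPS replicate 4 or saline replicate 4, the genes called higher fell to 3 for ubiquitin, 4 for NEDD8 and 2 for UFM1. Without LPS replicate 2 they were 3, 4 and 3, and without saline replicate 3 they were 3, 5 and 3. All 5 members of the ISG15 system rose under that scaling as well, by 0.55 (Uba7) to 3.06 (Isg15).

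**Figure D5:**
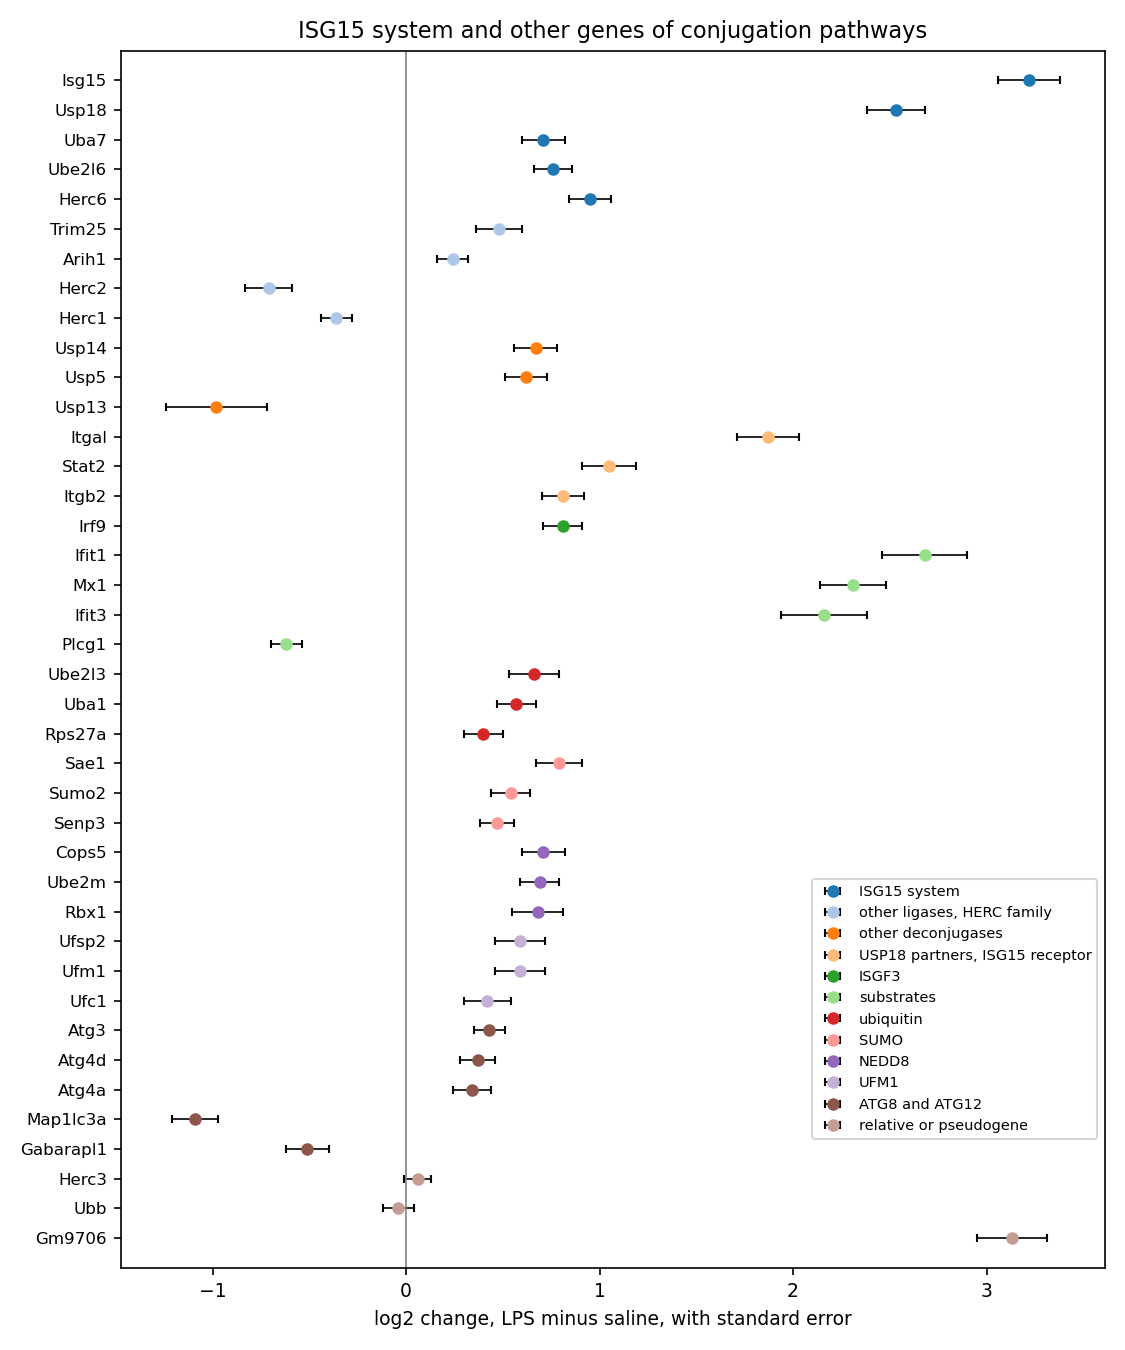
Log2 change, LPS minus saline, with its standard error (n = 4 arrays per group), coloured by list. Shown are the ISG15 system, the genes of the pathway lists named by rule, and the relatives Uba1, Ube2l3, Herc3 and Ubb with Gm9706. Isg15 (3.22), Gm9706 (3.13) and Usp18 (2.53) lie among the largest changes with Ifit1 (2.68), while Uba7 (0.71) and Ube2l6 (0.76) lie within the range of the SUMO and NEDD8 genes shown, which reaches 0.79, and Herc6 (0.95) lies above it.

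Over the whole series, 63.6% to 67.5% of spots were well above background after saline and 60.4% to 64.9% after LPS, and no spot was saturated. Of all genes 6267 were called higher and 4837 lower, or 6994 and 2619 when scaled to the median of each array, and 4851 and 7241 when scaled to the 75th percentile of the probes that every array detected. The median of all genes moved from 0.02 to 0.24 and -0.13 under those scalings. All 8 microglia markers passed the filter on dim probes, and of these 0 rose and 4 fell, with a summed level of 1530 to 1820 after saline and 1530 to 1710 after LPS. Markers of other cells moved too: 4 of 5 monocyte markers rose, with a summed level (in multiples of the 75th percentile of the array) of 79.0 to 106 after saline and 110 to 160 after LPS. For neutrophils the median of 10 markers was -0.05, and only S100a8 (1.59 ± 0.29) and S100a9 (1.38 ± 0.29) rose, with a summed level of 71.8 to 169 after saline and 169 to 299 after LPS. The other 8 did not pass the test, among them Camp (-0.89 ± 0.44) and Mpo (-0.54 ± 0.50). For T and NK cells 2 of 6 rose and 1 fell (1.81 to 2.79 against 4.57 to 5.46), with Ncr1 not well above background on any array and Cd3g on 1. For B cells 3 of 4 rose (14.6 to 20.8 against 18.1 to 21.5), and for plasmacytoid dendritic cells 3 of 5 rose and 2 fell (223 to 248 against 303 to 357). The latter list includes the interferon-induced Irf7 (3.60 ± 0.18) and Bst2 (1.62 ± 0.15). It also includes Siglech, which is a microglia marker above as well, holds the largest part of this summed level and fell by 0.22 ± 0.08. Of 6 border macrophage markers 4 fell (356 to 462 against 215 to 273), of 6 astrocyte markers 5 fell (14.1 to 18.0 against 7.69 to 9.79), of 8 oligodendrocyte lineage markers 6 fell (9.58 to 9.75 against 5.93 to 7.15) and of 5 endothelial markers 4 fell (14.9 to 20.3 against 10.7 to 13.2), with 0 rising in these lists. Of 5 neuronal markers 1 rose and 1 fell (9.09 to 11.1 against 6.71 to 8.89). The part of these cells in the changes of the ISG15 system was not tested.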

How the data were processed

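Per the labels, 50 ng of RNA per tube received the dye Cy3. Scanner output came from Agilent Feature Extraction 12.0.3.1, per the submitters' processing notes. The deposited intensity values are, per the file headers, background subtracted by a spatial surface and not scaled between arrays. A value table deposited by the authors, in log2 units, matched the scanner values after a shift by the 75th percentile of each array and centring on the median of each probe (correlations of 0.9992 to 0.9996, column medians of -0.072 to 0.076). It served as an alternative, and how it was made is not stated.

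Outlier and control spots were left out. Probes were named by RefSeq accession (35405 of 56605), symbol (9124) or synonym (25) in a GRCm38.p6 table, and 12051 kept the name in the file. Log2 processed signal minus the 75th percentile of each array was used, for the 35494 probes that at least 4 of 8 arrays showed well above background. Each gene was represented by its brightest probe. Groups were compared with limma 3.58.1 in R 4.3.3 and Benjamini-Hochberg adjustment. The procedure was also run on simulated data with independent genes of which few changed. That setting differs from these arrays, where 49.3% of genes were called, so it gives no error rate for them. Single differences used exact permutation tests. The members, gene lists and comparisons were chosen with earlier results of these data known.

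Genes were named by a rule: the 5 members, up to 3 risen and 3 fallen genes per list of more than 5 (the 2 brightest where none passed, and every gene of shorter lists), and the 5 genes most like the members. Ifnar1, Ifnar2, the relatives, neighbours and cell markers were named in addition, the neighbours after the values had been seen. Some genes of the lists are not reported here and were left out of the counts. All 8 arrays share 1 slide and 1 scan time. Replicate numbers follow the order of the samples, not a label. Each number is also 1 column of the slide, with 1 saline and 1 LPS array, and the column was used as a block in an alternative. Tubes were separate pools of mice, and the number of arrays limits the precision. Alternatives covered scaling, background, filter, probe choice, variance model, array weights, slide position, array signal, the authors' values and each array left out. Plots used matplotlib 3.10.9 (Python 3.11.15).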

Additional observations from a re-analysis of the deposited data

Results flagged for a closer look

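In 96 groups of 4 arrays checked for a stray array, 6 had one, where chance gives about 1 in 20. LPS replicate 3 was the stray array in 3 of them: Irf9 read 3.58 there against 3.80 to 3.82 on the other LPS arrays, Atg4a -0.55 against -0.24 to -0.21, and Map1lc3a 0.86 against 0.39 to 0.45. On saline arrays, Trim25 read 5.49 on replicate 3 against 5.71 to 5.75, and Atg4a read -0.77 on replicate 4 against -0.63 to -0.60. The difference Ube2l6 minus Ube2l3 was -3.74 on LPS replicate 1 against -3.52 to -3.49 on the other LPS arrays. None of the 5 members of the ISG15 system had such an array in either group.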

How the results depend on the processing

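The changes of Isg15, Usp18, Uba7, Ube2l6 and Herc6 kept their direction and stayed past the test under all 22 alternatives. Leaving out 1 array gave 3.12 to 3.34 for Isg15, 2.45 to 2.65 for Usp18, 0.65 to 0.79 for Uba7, 0.71 to 0.86 for Ube2l6 and 0.89 to 1.02 for Herc6. The other settings gave 2.96 to 3.43, 2.08 to 2.75, 0.44 to 0.92, 0.61 to 0.98 and 0.45 to 1.16. Slide column as a block, which is also the block by order number, changed no call of a member, raised the calls over all genes from 11104 to 13620 and gave Isg15 a standard error of 0.10 in place of 0.16 (adjusted p = 0.00105). The differences between genes were recomputed only where a setting changes the values. With all arrays kept, Usp18 minus Isg15 ranged from -1.03 to -0.48 and Herc6 minus Herc3 from 0.39 to 1.04 over those settings, always past the threshold. Uba7 minus Uba1 passed the threshold with quantile normalization (0.23), with the mean of a gene's probes (0.19) and in 1 fit without 1 array, and ranged from 0.11 to 0.17 over those fits. Ube2l6 minus Ube2l3 passed it with quantile normalization (0.33) and the mean of a gene's probes (0.59). The genes called higher fell to 4140 with the array's median signal as covariate, and those called lower to 2619 when scaled to the median of each array. Arih1 turned to -0.06 with the mean of a gene's probes, Herc3 to -0.10 when scaled to the 75th percentile of the probes that every array detected, and Ubb to 0.18 when scaled to the median of each array. The cause was not tested. Of 32 other named genes past the test, 0 to 6 lost their call under any one alternative. The probes of Herc6, of Gm9706 after saline and the second one of Ube2l6 were dim, though well above background on all 8 arrays. The size of the Herc6 change depended on how background was handled (0.45 with normexp and the offset).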
